A study of Mus musculus with 196 samples.

Results

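Mice of a backcross between FVB/N and Mus spretus were divided by how strongly their dorsal skin expressed Plscr4, a gene on chromosome 9. The division used the 85 dorsal arrays labelled as non-anagen, that is, outside the growth phase of the hair cycle, of 196 arrays in all. The mice were thus chosen by a measured value: a mouse was called high where the log2 value of Plscr4 in its dorsal skin was above 7.4 (42 mice) and low where it was 7.4 or below (43 mice). The other genes of these dorsal arrays were then compared between the groups, and the comparison was repeated in the tail arrays of the same mice (40 high and 42 low), which had no part in the division. Plscr4 in dorsal skin set the groups, so its values there are given as a description and were not tested.

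All mice were untreated, 8 weeks old and offspring of female FVB/N × Mus spretus hybrids mated to FVB/N males, and each array held skin of 1 mouse, from 1 ug of total RNA. The high mice were 21 females and 21 males and the low mice 20 females and 23 males. The dorsal arrays came from a larger batch (39 high and 36 low) and a smaller one (3 high and 7 low), and the tail arrays from a larger batch (39 high and 40 low) and a smaller one (1 high and 2 low). Genes of interfollicular epidermis were bright in all of these arrays, the mean over 10 such genes lying between 10.15 and 11.43. The median over all probe sets of an array was 5.81 ± 0.06 (SD, n = 42) in dorsal skin of high mice and 5.81 ± 0.06 (SD, n = 43) in that of low mice. In tail skin it was 5.94 ± 0.05 (SD, n = 40) in high mice and 5.96 ± 0.05 (SD, n = 42) in low mice. In 9 of the 97 tail arrays the mean over 990 olfactory receptor genes was 4.10 to 4.68, above the 3.38 to 3.76 of the other 88. Of these 9 arrays, 8 belonged to the mice compared here (5 high and 3 low), and tail results are given with them unless stated.

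Plscr4 encodes phospholipid scramblase 4, a membrane protein of a family named for moving phospholipids between the leaflets of the cell membrane in the presence of calcium. Such movement exposes phosphatidylserine on the cell surface, a mark by which dying cells are recognised. In a backcross of this kind, a mouse carries at each autosomal place either FVB/N copies only or 1 FVB/N and 1 Mus spretus copy, and places close together on a chromosome are usually inherited together. Genotypes were not used here. The value of a probe set depends both on the amount of RNA and on how well the RNA matches the probes, which cannot be told apart in these data. All values below are log2 expression, on which a difference of 1 is 2-fold, and differences are high minus low mice.

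The promoters of 5 chromosome 9 genes whose values differed between the groups in both tissues, or which the probe sets cannot separate from such a gene, are shown for orientation. They are RefSeq sequence of GRCm38.p6, the genome of C57BL/6J, which is neither parent of this cross, from 250 bases before to 50 after the gene's start. Capitals mark the CCAAT motif and the GC box GGGCGG on either strand (ATTGG and CCGCCC on the other). TATAAA was searched as well.
Plscr4, chr9:92457128-92457427, plus strand: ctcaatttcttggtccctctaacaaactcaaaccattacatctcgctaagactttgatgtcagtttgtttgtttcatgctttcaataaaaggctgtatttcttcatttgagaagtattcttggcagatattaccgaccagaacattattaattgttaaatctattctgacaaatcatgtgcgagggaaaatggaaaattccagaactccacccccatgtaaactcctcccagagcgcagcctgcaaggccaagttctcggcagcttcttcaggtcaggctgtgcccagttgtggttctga
Morf4l1, chr9:90114771-90115070, minus strand: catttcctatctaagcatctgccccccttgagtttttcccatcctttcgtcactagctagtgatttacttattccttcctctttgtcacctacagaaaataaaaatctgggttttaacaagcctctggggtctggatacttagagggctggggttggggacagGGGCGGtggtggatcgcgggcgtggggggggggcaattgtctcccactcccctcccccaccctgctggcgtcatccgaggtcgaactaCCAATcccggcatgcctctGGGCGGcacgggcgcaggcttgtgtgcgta
Rnf7, chr9:96478626-96478925, minus strand: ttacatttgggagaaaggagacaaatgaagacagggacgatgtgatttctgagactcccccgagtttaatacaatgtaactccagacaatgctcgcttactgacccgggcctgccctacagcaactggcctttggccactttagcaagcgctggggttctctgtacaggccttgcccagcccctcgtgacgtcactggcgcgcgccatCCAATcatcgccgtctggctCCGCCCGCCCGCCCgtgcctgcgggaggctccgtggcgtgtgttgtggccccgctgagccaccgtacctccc
Bcl2a1b, chr9:89199023-89199322, plus strand: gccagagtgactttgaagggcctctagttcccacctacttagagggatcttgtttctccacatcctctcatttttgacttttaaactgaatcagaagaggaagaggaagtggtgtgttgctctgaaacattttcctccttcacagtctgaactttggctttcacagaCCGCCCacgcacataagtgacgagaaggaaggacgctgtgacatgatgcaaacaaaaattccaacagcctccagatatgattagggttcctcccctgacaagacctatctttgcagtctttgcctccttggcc
Bcl2a1c, chr9:114329885-114330184, plus strand: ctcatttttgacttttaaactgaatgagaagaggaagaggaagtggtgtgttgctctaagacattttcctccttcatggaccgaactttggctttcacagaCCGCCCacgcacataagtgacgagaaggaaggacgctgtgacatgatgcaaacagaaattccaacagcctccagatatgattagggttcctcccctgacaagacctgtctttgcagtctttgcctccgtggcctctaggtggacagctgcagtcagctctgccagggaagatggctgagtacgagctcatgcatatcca
The Plscr4 window held none of the 3 motifs and 5 CG pairs. The Rnf7 window held 21 CG pairs, 1 CCAAT and 3 overlapping GC boxes. The Morf4l1 window held 13 CG pairs, 1 CCAAT and 2 GC boxes. Among 32851 mouse promoters of this length, 37.4% held CCAAT, 35.7% GGGCGG and 13.6% TATAAA, counting both strands. The Bcl2a1b and Bcl2a1c windows start at different points of nearly the same sequence: over 234 aligned bases, 224 were identical (95.7%) and 10 differed.

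In dorsal skin, Plscr4 lay at 7.75, 8.47 and 9.58 (lowest, median and highest) in the 42 high mice, against 5.64, 6.30 and 7.10 in the 43 low mice. The means were 8.47 ± 0.32 (SD, n = 42) in high mice and 6.30 ± 0.31 (SD, n = 43) in low mice. The values formed 2 well separated levels, and no mouse lay within 0.2 of the threshold. The high mice nearest to it had 7.75, 7.86 and 7.86 in dorsal skin, and the low mice nearest to it had 6.74, 6.95 and 7.10. The tails of these 3 low mice were at 6.58, 6.21 and 6.73, and those of the 2 of the 3 high mice that had a tail array at 8.45 and 8.05.

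The tail arrays carried the same division. Plscr4 lay at 7.99, 8.45 and 8.80 (lowest, median and highest) in tails of the 40 high mice, against 5.78, 6.51 and 7.85 in tails of the 42 low mice. The groups did not overlap, which held for no other gene of the 18820 (0.00531%). The difference in the tail was 1.87 (standard error 0.07, limma adjusted p = 2.65e-39). Among low mice, 2 had tails above the 7.4 used in dorsal skin, at 7.85 and 7.50, while their dorsal skin was at 6.15 and 6.49. All 40 tails of high mice were above it.

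**Figure D1:**
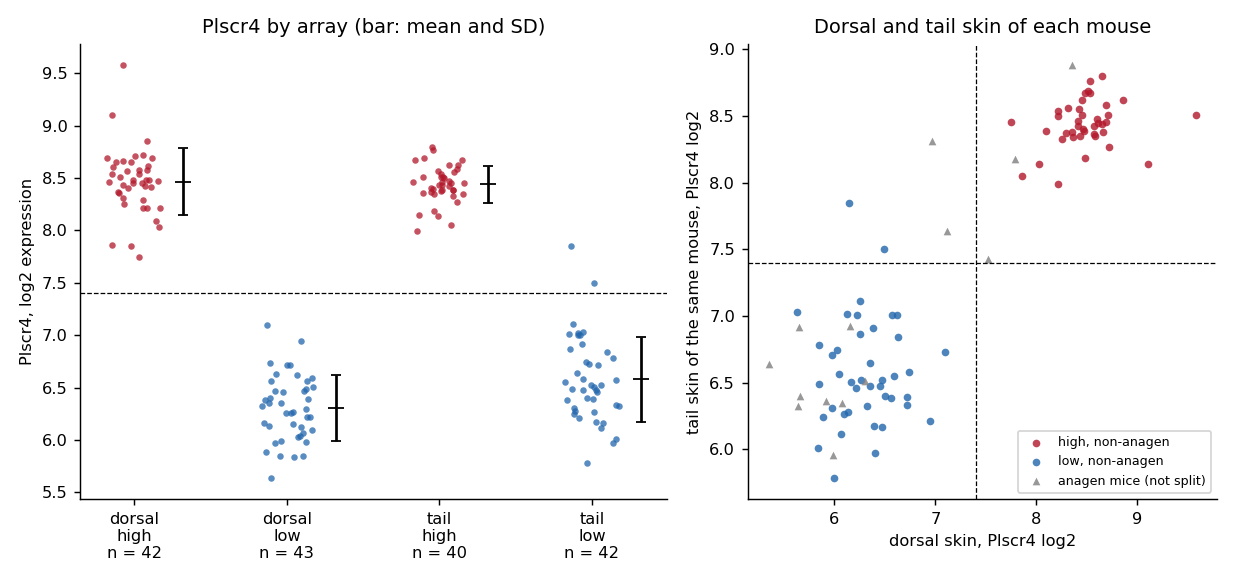
Plscr4 log2 expression in each array (left: dorsal and tail skin of high and low mice, with mean and SD beside the points) and in dorsal against tail skin of each mouse (right, with the 14 mice of anagen dorsal skin as triangles). The dashed lines mark 7.4. High and low mice form separate clouds in both tissues, and 2 low mice have tails above 7.4.

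Across all genes, few were called different between the groups, while 2454 in dorsal skin and 999 in tail skin had an unadjusted limma p under 0.05. In dorsal skin 117 of 18819 genes were called at an adjusted p under 0.05 (0.622%), of which 37 were higher (0.197%) and 80 lower (0.425%) in high mice. Shifting all arrays to the same median changed this split to 67 higher and 53 lower, with a median of all genes of 0.03 in place of -0.0003. In tail skin 145 of 18820 genes were called (0.77%), 43 higher (0.228%) and 102 lower (0.542%). Without the 8 tail arrays that stood apart, the tail counts were 50 higher and 89 lower. Chromosome 9 holds 5.84% of the measured genes besides Plscr4, and it held 70.1% of the calls in dorsal skin and 95.1% of those in tail skin.

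Of the 30 measured genes nearest to Plscr4, 15 on each side, 7 were called in dorsal skin (23.3%) and 6 in tail skin (20%). These shares compare with 0.198% and 0.0395% of the 17720 genes on other or unplaced chromosomes. Called in both tissues were 4 of the 30: Ctsh was higher, and Morf4l1, Tfdp2 and Rnf7 were lower in high mice. Plod2, Pls1 and Dipk2a were called in dorsal skin alone, and Trpc1 and Zfp949 in tail skin alone. The other 21 were called in neither tissue, with differences of -0.33 to 0.22 in dorsal skin and -0.20 to 0.16 in tail skin.

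Morf4l1, 8 genes from Plscr4 on the lower side, encodes a chromodomain protein of histone acetyltransferase and deacetylase complexes. In dorsal skin it lay at 10.61, 10.91 and 11.06 (lowest, median and highest) in high mice, against 10.84, 11.13 and 11.38 in low mice. In tail skin the values were 10.43, 10.60 and 10.71 in high mice, against 10.68, 10.88 and 11.15 in low mice, so that the tails of the groups met only at their edges. The difference was -0.25 (standard error 0.03, limma adjusted p = 2.03e-11) in dorsal skin and -0.28 (standard error 0.02, limma adjusted p = 2.52e-19) in tail skin. Morf4l1 has 4 probe sets, and the dimmest of them gave -0.23 in dorsal and -0.32 in tail skin.

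Rnf7, 15 genes away on the upper side, encodes a RING subunit of cullin ubiquitin ligases. In dorsal skin Rnf7 lay at 7.37, 8.11 and 8.98 in high mice, against 7.41, 8.68 and 9.26 in low mice. Its tail values were 7.49, 8.12 and 8.76 in high mice, against 7.98, 8.80 and 9.17 in low mice. The ranges overlapped in both tissues, but the medians of the low mice were above those of the high mice by more than the SD of either group. Its difference was -0.56 (standard error 0.08, limma adjusted p = 4.96e-07) in dorsal skin and -0.60 (standard error 0.05, limma adjusted p = 3.81e-16) in tail skin.

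Ctsh, which encodes the lysosomal protease cathepsin H, lies 9 genes away on the lower side and moved the other way. It lay at 9.15, 9.68 and 9.98 in dorsal skin of high mice, against 8.54, 9.42 and 9.77 in low mice. In tail skin Ctsh lay at 9.39, 9.91 and 10.38 in high mice, against 9.27, 9.75 and 10.12 in low mice. The groups overlapped widely in the tail, where the difference was 0.20 (limma adjusted p = 0.00734), against 0.39 in dorsal skin (limma adjusted p = 9.14e-09). Tfdp2, 13 genes away on the upper side and a partner of the E2F cell cycle factors, was lower by a smaller amount: -0.29 in dorsal skin (limma adjusted p = 2.71e-05) and -0.17 in tail skin (limma adjusted p = 0.000393).

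Plod2, the nearest measured gene on the upper side, encodes an enzyme that hydroxylates collagen lysines. It lay at 4.69, 5.12 and 5.84 in dorsal skin of high mice, against 4.20, 4.73 and 5.37 in low mice, a difference of 0.37 (limma adjusted p = 6.73e-05). In tail skin its medians were 5.14 in high mice and 5.04 in low mice, a difference of 0.05 (standard error 0.10, limma adjusted p = 0.992). Pls1, which encodes an actin bundling plastin, had a difference of -0.38 in dorsal skin (limma adjusted p = 0.00488) and -0.17 in tail skin (limma adjusted p = 0.581). Dipk2a, 2 genes away, had -0.16 in dorsal skin (limma adjusted p = 0.0243), a call lost in the larger batch alone (-0.15, limma adjusted p = 0.0568), and 0.07 in tail skin (limma adjusted p = 0.88). Trpc1, a cation channel gene, and Zfp949, a zinc finger gene, showed the reverse order. Trpc1 had a difference of -0.13 in dorsal skin (limma adjusted p = 0.374) and -0.44 in tail skin (limma adjusted p = 8.22e-09), and Zfp949 had -0.33 (limma adjusted p = 0.0673) and -0.60 (limma adjusted p = 6.7e-11). Of these genes, none was called in the test of the difference between tissues itself, except Dipk2a where the mouse was a replicate block.

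The scramblase genes beside Plscr4 were not called in either tissue. Plscr2 lies 2 genes and Plscr1, which interferon induces, 3 genes away on the lower side. Plscr1 lay at 5.57, 6.10 and 6.60 in dorsal skin of high mice, against 5.16, 6.01 and 6.72 in low mice, and Plscr2 had medians of 4.07 in high mice and 4.23 in low mice. The differences of Plscr1 were 0.07 in dorsal skin (limma adjusted p = 0.72) and -0.10 in tail skin (limma adjusted p = 0.88), and those of Plscr2 -0.10 (limma adjusted p = 0.615) and 0.07 (limma adjusted p = 0.991). Plscr3 is named only in probe sets that also name Tnk1, and Plscr5 by no probe set of its own, so neither has a value here. Of the other genes of lipid transport across the membrane, called in either tissue were 0 of 10 measured scramblase genes of the Ano, Xkr and Atg9 kind, 0 of 19 flippase and floppase genes, and 0 of 12 genes of phosphatidylserine recognition. With 0.622% of all genes called in dorsal skin and 0.77% in tail skin, counts of 0 in lists of this size are near the background and say nothing particular about them. Their median differences were between -0.022 and 0.026 in dorsal skin and between -0.018 and 0.019 in tail skin, beside a median of all genes of -0.0003 and 0.0006. Of 12 measured interferon response genes 0 were called in either tissue, a count likewise near the background. Their median difference in dorsal skin was further from 0, at -0.17 with 9 of 12 below 0. In tail skin it was -0.02 with 7 of 12 below 0.

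**Figure D2:**
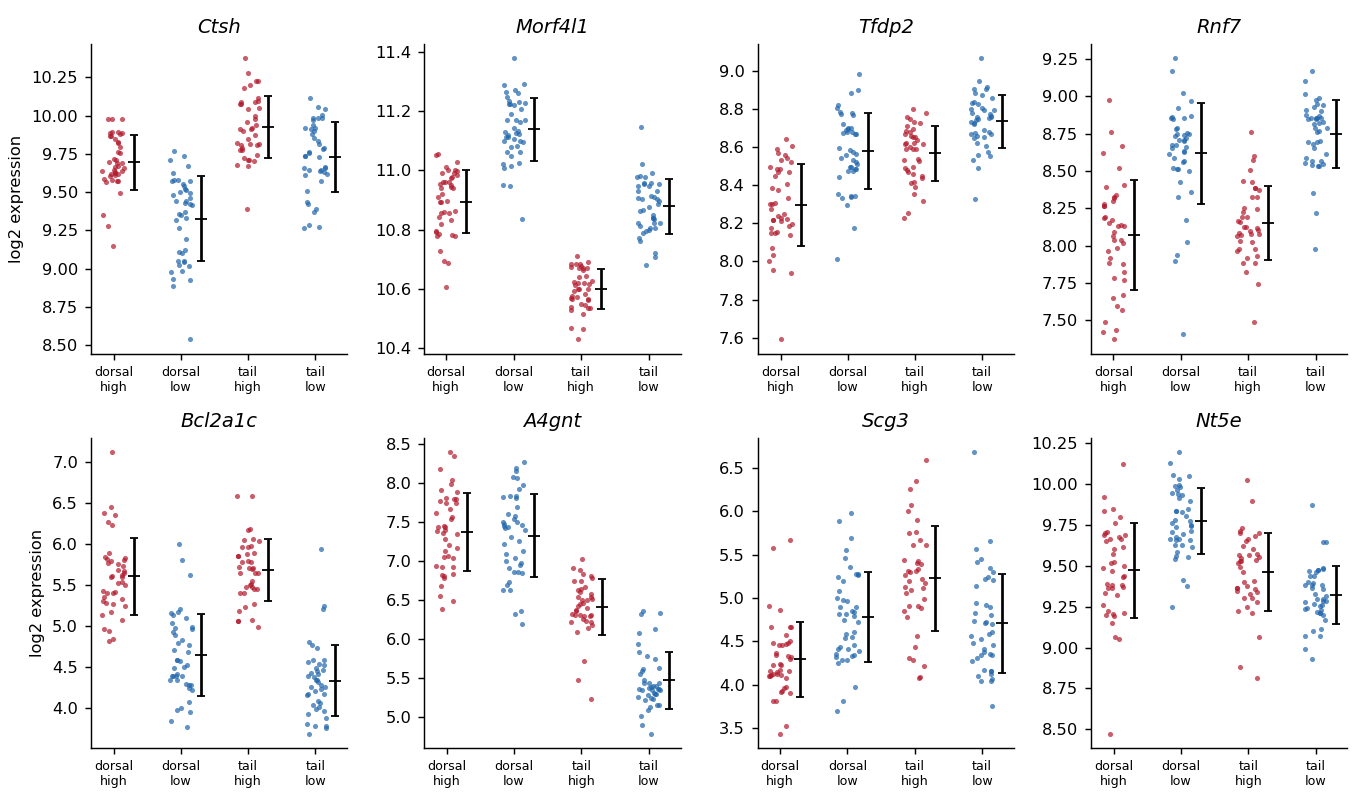
Log2 expression of 8 chromosome 9 genes in each array of dorsal and tail skin, high mice in red and low mice in blue, with mean and SD beside the points (42 high and 43 low in dorsal skin, 40 high and 42 low in tail skin). Morf4l1, Rnf7 and Bcl2a1c differ alike in both tissues, A4gnt differs in the tail, and Scg3 differs in opposite directions.

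Along chromosome 9, called genes were commoner within 100 places of Plscr4 than far from it, but their share did not fall steadily with distance. On the lower side in tail skin, for example, it was 14% at 151 to 200 places and 22% at 201 to 250. Of the 200 genes within 100 places of it, 38 were called in dorsal skin (19.0%) and 58 in tail skin (29.0%). Of the 499 genes more than 300 places away 11 were called in dorsal skin (2.2%) and 17 in tail skin (3.41%). Counted in windows of 50 genes, the highest share was 22% in dorsal skin, at 51 to 100 places on the upper side, and 40% in tail skin, at 51 to 100 places on the lower side. From 551 to 750 places on the lower side, 0 of 200 genes were called in tail skin and 1 in dorsal skin. The outermost lower window, which holds only 14 genes, had 2 called in dorsal skin.

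Over the whole chromosome, 30 genes were higher and 52 lower in dorsal skin (7.46% of 1099), and 36 were higher and 101 lower in tail skin (12.5%). The tissues shared 50 of these calls, which is 61.0% of the dorsal and 36.5% of the tail calls. Of the 50, 20 were higher in both tissues, 29 lower in both, and 1, Scg3, went opposite ways. Besides Plscr4, the differences of called genes were between -0.79 and 0.99 in dorsal skin and between -0.60 and 1.34 in tail skin.

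**Figure D3:**
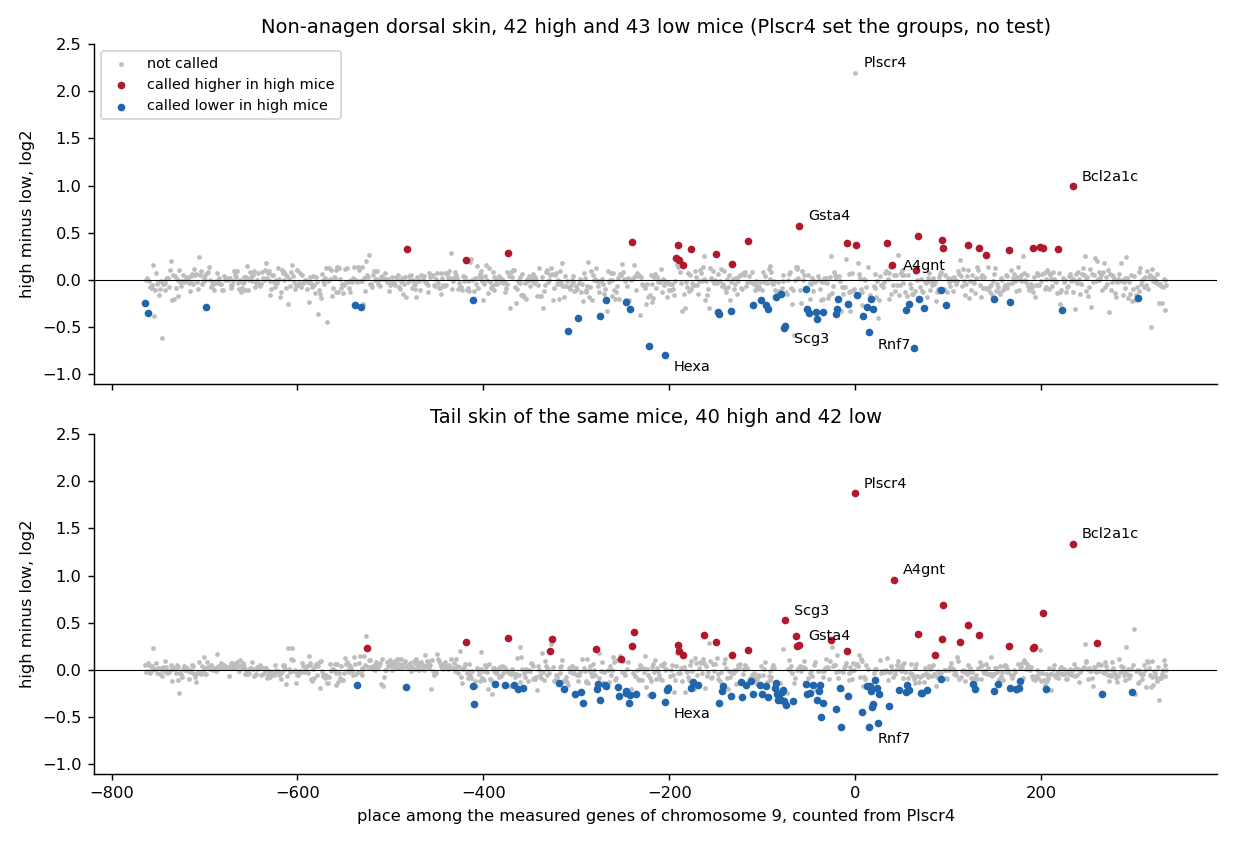
Difference between high and low mice (log2) for each measured chromosome 9 gene, in order along the chromosome and counted in genes from Plscr4, in dorsal skin (top) and tail skin (bottom). Red points are genes called higher and blue points genes called lower in high mice, and grey points were not called. Called genes crowd around Plscr4 and thin out toward the far lower end.

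The largest difference after Plscr4 belonged to Bcl2a1c, of a gene family that protects cells from apoptosis. Bcl2a1c lay at 4.81, 5.60 and 7.11 (lowest, median and highest) in dorsal skin of high mice, against 3.77, 4.57 and 5.99 in low mice. In tail skin it lay at 4.99, 5.70 and 6.58 in high mice, against 3.69, 4.30 and 5.94 in low mice. The ranges overlapped in both tissues, the highest low mouse lying above the median of the high mice. The lowest high mouse lay above the median of the low mice. The difference was 0.99 (standard error 0.10, limma adjusted p = 2.03e-11) in dorsal skin and 1.34 (standard error 0.09, limma adjusted p = 2.59e-21) in tail skin.

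Which Bcl2a1 copy gave this signal is uncertain. Bcl2a1c lies 234 genes from Plscr4 on the upper side, while its near-identical relatives Bcl2a1a, Bcl2a1b and Bcl2a1d lie on the lower side between Zfp949 and Minar1, within the 15 nearest measured genes. The 3 probe sets that name several of these genes differed by like amounts, 0.88 to 1.06 in dorsal skin and 1.19 to 1.39 in tail skin. The set of Bcl2a1c lay within these ranges, at 0.96 and 1.35 (all differences of group means, described without a test).

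Gsta4 and Hexa were also among the largest dorsal calls of chromosome 9 and were called in both tissues. Gsta4, a glutathione transferase for products of lipid peroxidation, lies 60 genes away on the lower side and had 7.60, 8.17 and 8.84 in dorsal skin of high mice, against 6.49, 7.65 and 8.29 in low mice. Its differences were 0.57 in dorsal skin (limma adjusted p = 1.75e-09) and 0.26 in tail skin (limma adjusted p = 0.0043). Hexa, which encodes the alpha subunit of a lysosomal hexosaminidase, lies 205 genes away and had the lowest dorsal difference of the chromosome 9 genes called there, -0.79 (limma adjusted p = 8.34e-06). Hexa lay at 6.43, 7.33 and 8.90 in dorsal skin of high mice, against 6.97, 8.08 and 9.48 in low mice, and differed by -0.34 in tail skin (limma adjusted p = 0.00056).

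The other genes among the 10 largest dorsal calls of chromosome 9 in each direction are given here, Bcl2a1c, Gsta4, Ctsh, Plod2, Hexa, Rnf7 and Scg3 being described apart. Called in tail skin in the same direction were Tmem108, Abhd14a, Fam81a, Cox5a, a subunit of cytochrome c oxidase, and Hyal3, a hyaluronidase gene, all higher in high mice. Their dorsal differences were between 0.37 and 0.47 and their tail differences between 0.21 and 0.47. Lysmd2, Irak1bp1 and Hykk, a hydroxylysine kinase gene, were lower in both tissues, with dorsal differences of -0.51, -0.42 and -0.38 and tail differences of -0.33, -0.32 and -0.31. Of these other genes, those not called in the tail were Faim (0.39 in dorsal skin, 0.13 in tail skin), Trf, the gene of transferrin (-0.73 and -0.10), Islr (-0.70 and -0.27), Layn, a hyaluronan receptor gene (-0.54 and -0.16), and Zc3h12c (-0.41 and -0.12). Trf lost its dorsal call when the larger batch was taken alone (-0.65, limma adjusted p = 0.122), and Layn when the anagen dorsal arrays were added (-0.44, limma adjusted p = 0.0569).

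The values of some chromosome 9 genes could be divided into 2 levels across mice, so that each mouse could be placed on a side. In dorsal skin 8 such genes were found (levels at least 4 pooled SDs apart, at least 6 mice on each). Besides Plscr4 these were Casp4, Taf1d, Pate4, Olfr143, Olfr905, Nnmt and Xirp1, and between 50.6% and 58.8% of mice were on the side they held for Plscr4. The 51 such genes on other autosomes had a median share of 52.9% and a highest one of 60.0%. Where 1 level held few mice the share was limited in advance, since Plscr4 divided the mice into 42 and 43. The smaller level held 13 mice for Pate4, 10 for Olfr143, 8 each for Olfr905 and Nnmt, and 17 for Xirp1. For such genes, on any chromosome, a low share cannot tell whether they went with Plscr4. Casp4 (51 and 34 mice) and Taf1d (47 and 38) had more even levels, with shares of 54.1% and 58.8%. Taf1d rests on 1 of 12 probe sets, and the dimmest of them gave a dorsal difference of 0.01, against 0.25 for the one used. In the 74 tail arrays that did not stand apart, 11 genes had 2 levels with at least 20 mice on each, a minimum chosen after the values were seen. Under the rule used for dorsal skin, all 82 tails gave 115 such genes on chromosome 9 and 1167 on other autosomes, those on other autosomes with a highest share of 63.4%. Many of those on other autosomes had 1 small level too, so their shares were limited in the same way. The share of mice on the side they held for Plscr4 in dorsal skin was 98.6% (73 of 74) for Plscr4 itself in the tail and the same for Bcl2a1c. On the upper side it was 90.5% for A4gnt at 42 places, 82.4% for Abhd14b at 95, 78.4% for Ngp, a neutrophil granule gene, at 202 and 70.3% for Ss18l2 at 292. On the lower side it was 73.0% for Spa17 at 526 places, 68.9% for Siae at 525 and for Snx19 at 576, 62.2% for Taf1d at 706 and 56.8% for Casp4 at 755. Snx19 ran opposite to Plscr4, its higher level going with low mice. The 108 genes with 2 such levels on other autosomes had a median of 54.1% and a highest share of 62.2%. Since the best of 2 orientations was taken for each gene, 50% is the lowest possible share.

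**Figure D4:**
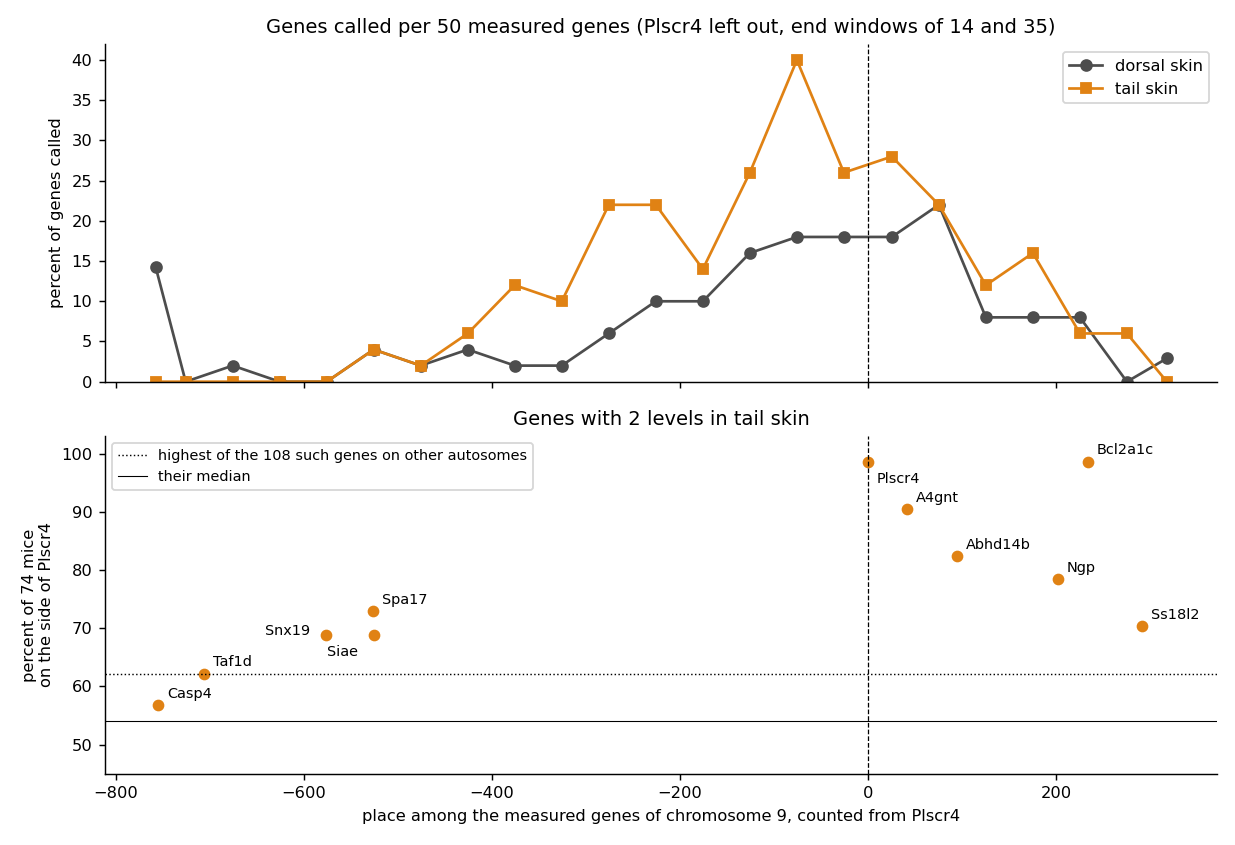
Top, percent of genes called in windows of 50 measured genes on either side of Plscr4 in dorsal and tail skin. Bottom, for the 11 chromosome 9 genes with 2 levels in tail skin, the percent of 74 mice on the side they held for Plscr4, with the median (54.1%) and the highest (62.2%) of 108 such genes on other autosomes as lines. Apart from Bcl2a1c at 98.6%, the upper genes fall with distance, to 70.3% for Ss18l2.

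The effect of the split was called different between tissues in few genes, while 1761 had an unadjusted limma p under 0.05. The difference between the tail effect and the dorsal effect was called in 3 of 18819 genes (0.0159%), and in 5 with the mouse as a replicate block, and all of these lie on chromosome 9. A4gnt, which encodes a glycosyltransferase of mucins, lies 42 genes from Plscr4 on the upper side. In tail skin A4gnt lay at 5.23, 6.44 and 7.03 in high mice, against 4.79, 5.37 and 6.37 in low mice, and differed by 0.96 (limma adjusted p = 2.81e-17). In dorsal skin its values were higher and the groups overlapped throughout, with medians of 7.39 in high mice and 7.42 in low mice and a difference of 0.05 (limma adjusted p = 0.879). The tail effect exceeded the dorsal effect by 0.91 (standard error 0.13, limma adjusted p = 9.47e-07).

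Scg3, a gene of secretory granules 75 genes away on the lower side, was called in opposite directions. In dorsal skin Scg3 lay at 3.44, 4.23 and 5.67 in high mice, against 3.70, 4.79 and 5.98 in low mice, a difference of -0.49 (limma adjusted p = 0.0025). In tail skin it lay at 4.08, 5.24 and 6.59 in high mice, against 3.75, 4.60 and 6.68 in low mice, a difference of 0.53 (limma adjusted p = 0.0154). The tail effect exceeded the dorsal effect by 1.02 (limma adjusted p = 5.3e-05). Nt5e, the gene of the adenosine-forming ectoenzyme CD73, 19 genes away on the lower side, was lower in dorsal skin (-0.31, limma adjusted p = 0.000174) and had a difference of 0.15 in tail skin (limma adjusted p = 0.0668). Its effects differed by 0.47 (limma adjusted p = 7.32e-06). The 2 genes added by the replicate block were Dipk2a (0.22, limma adjusted p = 0.0327) and Fez1 (0.33, limma adjusted p = 0.0408). Batch and tissue cannot be told apart in this comparison.

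The difference between the effect in females and that in males was tested in dorsal skin, and 0 of 18819 genes were called by limma, with a lowest limma adjusted p of 0.688, while 1337 had an unadjusted p under 0.05.

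Outside chromosome 9, 35 genes were called in dorsal skin and 7 in tail skin, and 1 in both. This was Gm6548, a transcribed pseudogene on chromosome 17 by its RefSeq annotation, whose gene of origin is not given there. Gm6548 lay at 7.77, 8.25 and 8.91 in dorsal skin of high mice, against 7.50, 7.83 and 8.32 in low mice. In tail skin it lay at 7.13, 7.44 and 7.90 in high mice, against 6.92, 7.20 and 7.60 in low mice. Its differences were 0.44 in dorsal skin (limma adjusted p = 6.11e-08) and 0.26 in tail skin (limma adjusted p = 1.43e-06). A pseudogene can share sequence with other genes, so the source of its signal is uncertain.

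In dorsal skin, 28 genes outside chromosome 9 were lower in high mice, by 0.23 to 0.80. Cybb, the phagocyte oxidase gene, lay at 4.56, 5.67 and 8.66 in high mice, against 4.54, 6.38 and 8.89 in low mice, a difference of -0.80 (standard error 0.20, limma adjusted p = 0.0257). The groups overlapped over nearly their whole range. Ms4a6c (-0.77), the complement gene C1qb (-0.75), the phospholipase gene Pla2g2d (-0.69), Pld4 (-0.65), the lysozyme gene Lyz1 (-0.64) and Ms4a7 (-0.60) were called as well. Ctsk, the gene of the collagen-degrading cathepsin K, had -0.71 (limma adjusted p = 0.0285) and Fndc1 -0.58. A530032D15Rik, at -0.57, rests on 1 of its 2 probe sets, and the other gave 0.08.

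None of these 28 was called in tail skin, where their differences were between -0.25 and 0.07. Their tail effects were not shown to differ from the dorsal ones, since the lowest limma adjusted p of that test among them was 0.203. With the larger dorsal batch alone, Cybb, Ms4a6c, C1qb, Lyz1, Ms4a7, Ctsk and Fndc1 were no longer called, for example Cybb at -0.76 (limma adjusted p = 0.0774). Called higher in dorsal skin, besides Gm6548, were Clec2g (0.35), the matrilin gene Matn4 (0.30), Mir697 (0.28), Rabep2 (0.26), Itpkc (0.23) and the heat shock factor gene Hsf2 (0.22). Of these calls, that of Rabep2 was lost under 6 alternatives, those of Itpkc and Hsf2 under 5 each and that of Mir697 under 2. For Rabep2 and Itpkc, with 1 probe set each, 1 of these was the change of probe sets. It left their differences as they were and moved only the limma adjusted p, to 0.0506. The call of Clec2g was lost under 1 (0.32 with the anagen dorsal arrays added, limma adjusted p = 0.0576), and that of Matn4 under none of those run. In tail skin the other called genes were Gm7265 (0.38, with no chromosome in the annotation used), Cyp1b1 (0.32), Vnn1, the gene of a pantetheinase (0.27), and Faah, the gene of the enzyme that degrades anandamide (0.20), which were higher, and 1700009J07Rik (-0.20), which was lower. The call of 1700009J07Rik was lost under 6 alternatives, among them leaving out the tails that stood apart (-0.18, limma adjusted p = 0.133). With the mice of anagen dorsal skin added, grouped by their dorsal value, Faah had 0.13 (limma adjusted p = 0.397) and Cyp1b1 0.26 (limma adjusted p = 0.172). The other probe set of Cyp1b1 gave 0.14 (limma adjusted p = 0.612).

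**Figure D5:**
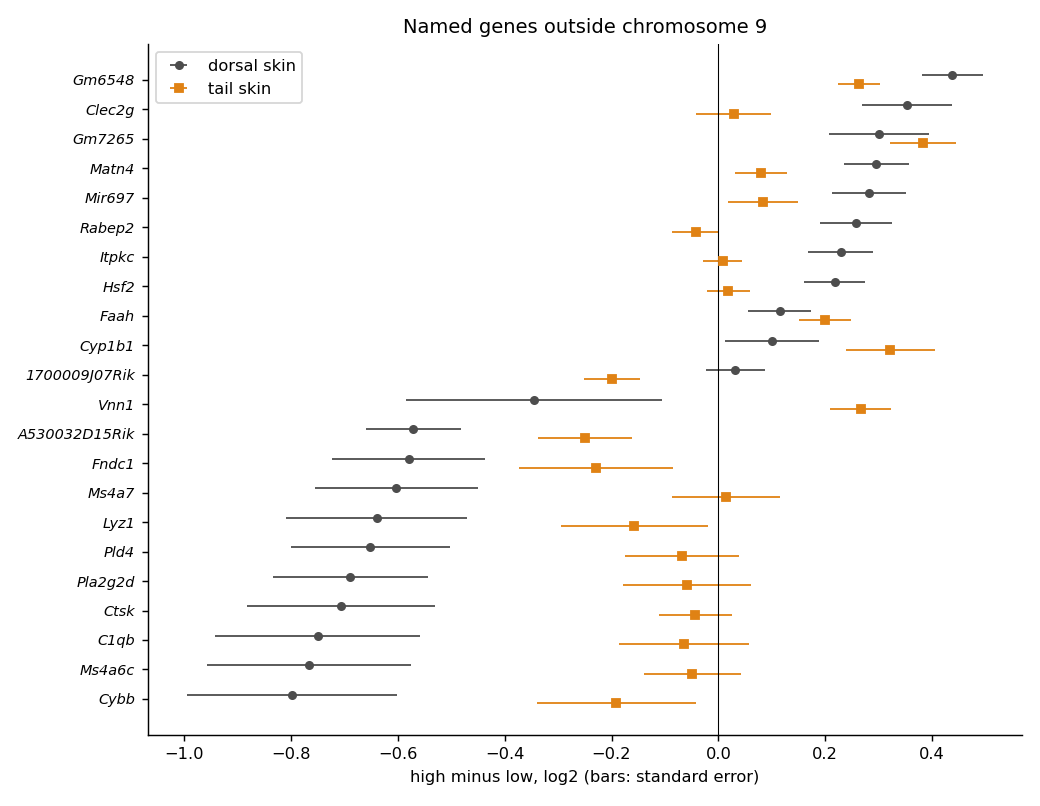
Difference between high and low mice (log2, bars are standard errors) in dorsal skin (circles) and tail skin (squares) for the named genes outside chromosome 9. Gm6548 is higher in high mice in both tissues, while the genes lower in dorsal skin, such as Cybb at -0.80, lie nearer to 0 in the tail.

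Several marker lists had median differences below 0 in dorsal skin beside these genes, and 1 member of all lists was called, where 0.622% of all genes were. All 14 skeletal muscle genes had negative differences in dorsal skin (median -0.60, 0 called). The mean over the muscle genes spanned 4.96 to 10.76 in dorsal skin of high mice and 5.11 to 11.25 in that of low mice, averaging 7.31 and 7.90. All 13 white adipocyte genes (median -0.21), all 12 endothelial genes (-0.25) and all 8 smooth muscle genes (-0.18) were negative too, with 0 called in each. Among fibroblast and matrix genes, 10 of 11 were negative (median -0.29) and Col6a1 was called (-0.32, limma adjusted p = 0.0495), a call lost under 5 alternatives. Since Col6a1 has 1 probe set, 1 of these, the change of probe sets, left its difference as it was. There only the limma adjusted p moved, to 0.0506. The macrophage and dendritic cell list had 10 of 12 genes below 0 (median -0.18), 0 called, with a mean level of 6.76 to 8.54 in high mice and 6.86 to 8.51 in low mice. For the mast cell list 7 of 8 were below 0 (median -0.19), for melanocytes 7 of 9 (-0.12), for sebaceous gland 8 of 9 (-0.09), for the mitotic cell cycle 7 of 11 (-0.02), and all 3 measured Schwann cell and myelin genes (-0.12), of 7 listed. The lists above 0 in the median were interfollicular epidermis (0.09), hair shaft and inner root sheath (0.08) and T cell (0.05). In bulk skin, fewer cells of a type and less RNA per cell cannot be told apart. The part of these lists in the calls outside chromosome 9 was not tested.

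In tail skin, 0 members of any of the 19 lists were called, beside 0.77% of all genes and 0.0395% of those on other or unplaced chromosomes, so the counts are near the background. The median differences were -0.12 for skeletal muscle (14 of 14 below 0), 0.08 for white adipocyte, 0.05 for endothelium, 0.03 for smooth muscle, -0.001 for fibroblast and matrix, -0.02 for macrophage and dendritic cell and -0.04 for mast cell genes. They were -0.22 for melanocyte (9 of 9 below 0), -0.13 for hair shaft and inner root sheath (11 of 11), -0.09 for mitotic cell cycle (11 of 11), 0.06 for sebaceous gland, 0.05 for Schwann cell and myelin, -0.007 for interfollicular epidermis and 0.005 for T cell genes.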

How the data were processed

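The deposited values are log2 expression per probe set from mouse gene arrays, made by the authors with RMA, which corrects background, quantile normalizes the arrays and summarises each set's probes, per the submitters' processing notes. The version is not given in the sources used here. Of 35556 probe sets, 21218 name 1 gene, and the one with the highest mean was kept per gene, leaving 18820 genes. Dim genes were kept, all arrays of both tissues were used, and no 2 arrays held identical values. RefSeq (GRCm38.p6) gave the order of genes, promoters and chromosomes, matching 18790 genes by Entrez ID. The array annotation's own build is not stated, so gene order is used without coordinates.

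Groups were compared by lmFit and eBayes of limma 3.58.1 (R 4.3.3, two-sided) with sex and batch as covariates, p-values being adjusted by Benjamini-Hochberg over all genes and called under 0.05. Plscr4 was left out of every test on dorsal arrays. Differences between tissues and between sexes were interaction contrasts. The mouse number pairs the tissues, because both arrays come from the same animal (82 mice, consensus correlation 0.081). Tables and figures were made in Python 3.11.15 with pandas 2.3.3, and the fits were tested on simulated data. The threshold, the lists and the genes were chosen with earlier results of these data known.

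Genes named were Plscr4 and its family, the 15 nearest on each side, the 10 largest dorsal calls per direction on chromosome 9 and elsewhere, the 5 largest tail calls elsewhere and interaction calls, called list members, and chromosome 9 genes with 2 levels. Fez1 and the genes with 2 levels in the tail were added after their values were seen. The number of arrays limits the precision.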

Additional observations from a re-analysis of the deposited data

Results flagged for a closer look

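The effect of the Plscr4 split differed between tail and dorsal skin, by a test of the difference itself, for 3 genes of chromosome 9: by 0.911 for A4gnt, by 0.465 for Nt5e and by 1.02 for Scg3 (log2, tail effect minus dorsal effect, 82 mice). The tail effect was the larger in size for A4gnt (0.96 in tail, 0.05 in dorsal skin). Scg3 had effects of like size and opposite sign (0.53 and -0.49). Nt5e had a negative dorsal effect (-0.31) and a smaller tail difference that was not called (0.15). With the mouse as a random replicate block the values were 0.911, 0.465 and 1.02. Dorsal and tail arrays were in separate batches, so tissue and batch cannot be told apart.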

How the results depend on the processing

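Leaving out mice within 0.2 of the threshold removed none. Against 37 higher and 80 lower dorsal calls in the main fit, 67 and 53 were made after shifting arrays to the same median. Lower calls numbered 50 with the genes above the median level and 49 in the larger batch. These are all calls of each fit, not main calls that were kept. On chromosome 9 the dorsal calls were 19 higher and 29 lower among the genes above the median level, where fewer genes were tested. Tail counts stayed within 1.5 times under every alternative run, including the tails that stand apart left out (added after seeing the data): chromosome 9 then had 40 higher and 89 lower, Plscr4 included. The tissue difference was called in 5 genes with the mouse as a random replicate block and in 5 by the difference within each mouse, against 3 without a block, adding Dipk2a and Fez1, and it changed no other call. Members of gene lists called in dorsal skin numbered 0 without the sex and batch terms, after median shift, after quantile normalization and in the larger batch, against 1, and in tail skin 2 after median shift and 2 after quantile normalization, against 0. The other probe set of A530032D15Rik reversed its dorsal difference to 0.084. The cause was not tested. Of 69 calls for named genes, 43 in dorsal and 26 in tail skin, 47 to 69 were made in the same direction under the alternatives run in both tissues, 47 being where dim genes were not tested. In the larger dorsal batch 13 named genes lost their call: C1qb, Col6a1, Ctsk, Cybb, Dipk2a, Fndc1, Hsf2, Lyz1, Mir697, Ms4a6c, Ms4a7, Rabep2 and Trf. The smaller dorsal batch, with 3 high and 7 low mice, was not fitted alone. Values near the low end of the scale, such as those of Scg3, may lie near the background of the arrays.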

Other observations

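The 14 mice whose dorsal skin was labelled anagen were not part of the main split. In the alternatives that added them, they were grouped by the same 7.4 applied to their anagen dorsal value, in tail skin too. Placed by the Plscr4 value of their tails, 5 were above 7.4 and 9 at or below it. Plscr4 in their tails lay at 7.43, 8.18 and 8.89 (lowest, median and highest) in the 5, against 5.95, 6.40 and 6.93 in the 9. Of the 5, those at 7.43 and 7.64 were not plainly on the high side. They lay below all tails of the high mice above (from 7.99) and within the range of the low mice (up to 7.85). In the anagen dorsal skin of these mice Plscr4 lay at 6.97, 7.52 and 8.36 in the 5, against 5.35, 5.92 and 6.31 in the 9. Of the 5, 3 were above 7.4, so the dorsal threshold of non-anagen skin placed the other 2 differently from their tails. Those 2 counted as low mice in the alternatives that added the anagen mice. Rnf7, the cullin ligase subunit gene, lay at 8.00 to 8.49 in the tails of the 5 and 8.59 to 9.01 in those of the 9. Morf4l1 lay at 10.36 to 10.58 in the 5 and 10.68 to 11.03 in the 9. Rnf7 and Morf4l1 were among 24 of 18819 genes (0.128%) whose values did not overlap between the 5 and the 9, and they were named for their differences in the other tails. Bcl2a1c overlapped, with 4.80 to 7.14 in the 5 and 4.09 to 5.15 in the 9. These mice were placed by a measured value and 1 of the 5 has a tail array that stood apart, so the values are a description and were not tested.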
